A study of Saccharomyces cerevisiae with 16 samples.

Results

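The genes described here are the ribosome biogenesis factors of budding yeast (Saccharomyces cerevisiae) whose standard names are UTP, NOP or RRP followed by a number. That naming rule found 53 genes, 18 UTP, 17 NOP and 18 RRP genes, among 6692 genes in the deposited count table. UTP genes were named for the U3 particle, NOP for the nucleolus and RRP for ribosomal RNA processing. The naming rule uses no measured value, though it was chosen with earlier results of these data known. The sequencing covered polyadenylated RNA from 16 samples in a 2 by 2 design with 4 replicates a group, numbered 2 to 5. One factor was histone H3, either wild type (H3 WT) or H113N, in which a histidine of H3 is replaced by asparagine. The other was YFH1, the yeast frataxin gene, which works in mitochondrial iron-sulfur cluster assembly. The groups called YFH1-off carry p(GAL1)-YFH1, in which the galactose-driven GAL1 promoter controls YFH1, so that the shutoff and the altered YFH1 locus cannot be told apart. The culture protocol is worded for YFH1-off cells and attached to all samples: cells from YPG were grown in SC medium at 30 °C for 44 h in all, with repeated dilution. Whether a group is 1 clone is not said, and the labels do not say that replicates were separate cultures, so p-values measure the spread between these samples, which may be technical.

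Ribosomes are assembled in the nucleolus. RNA polymerase I makes a long precursor RNA, on which the small subunit processome folds around the U3 small nucleolar RNA and cuts out the small subunit rRNA, while a separate set of factors builds the large subunit and the RNA exosome trims the precursors from their 3′ ends. In yeast these factors form a coordinately transcribed regulon that follows growth rate and nutrients through the TOR and protein kinase A pathways. A pair of short promoter elements is known from it: PAC, bound by the repressors Dot6 and Tod6, and RRPE, bound by the repressor Stb3.

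Both elements were searched in the 250 bases before the start of each gene on either strand, in RefSeq's assembly R64 (the sacCer3 build that the submitters' processing notes name). PAC was searched as GATGAG and RRPE as AAAATTTT, which is its own reverse complement. PAC was present in 43 of the 53 promoters (81.1%), against 17% of the 6001 protein-coding promoters of the same length. RRPE was present in 31 (58.5%), against 8.65% of all promoters. Both stood in 26 promoters (49.1%), against 4.08% of all. The longer form GCGATGAG stood in 23 members (43.4%), against 3.83% of all. The elements were not particular to the named genes. PAC stood in 93% of 43 other small subunit factors and 88.9% of 54 other large subunit factors, and RRPE in 76.7% and 81.5%. Among the 53 genes, PAC stood in 4 of 6 UtpA promoters, all 4 of UtpB and 0 of 2 of the UtpC/Rrp7 pair. It also stood in all 5 of the snoRNP proteins, 14 of 15 other processome factors and 13 of 14 large subunit factors. Of the 7 exosome promoters 3 held PAC, and RRP6 alone held RRPE. Neither element was found in RRP42, RRP45, RRP46, UTP22 or UTP30. Counting from the middle of each match, PAC lay a median of 116.5 bases and RRPE a median of 129.5 bases before the gene start.

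The stretches below are shown because their genes carry the differences described later, with NOP7 and UTP7 added to show the arrangement of the elements. Each is written 5′ to 3′ on the gene's own strand, and capitals mark PAC (GATGAG, or CTCATC where it lies on the other strand) and RRPE.
RRP3, chrVIII:229223-229253, minus strand: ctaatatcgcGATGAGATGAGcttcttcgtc
NOP16, chrV:156688-156713, plus strand: aaaaataggcGATGAGataaatttat
UTP14, chrXIII:82964-83012, plus strand: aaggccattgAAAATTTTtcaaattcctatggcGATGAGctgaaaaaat
UTP6, chrIV:1358992-1359041, minus strand: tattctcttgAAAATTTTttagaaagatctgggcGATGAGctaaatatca
UTP7, chrV:326046-326085, minus strand: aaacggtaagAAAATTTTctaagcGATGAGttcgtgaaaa
UTP20, chrII:227417-227479, plus strand: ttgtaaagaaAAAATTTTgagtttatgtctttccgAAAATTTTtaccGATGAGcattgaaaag
RRP36, chrXV:851938-851976, minus strand: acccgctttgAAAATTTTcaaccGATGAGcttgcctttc
NOP1, chrIV:427129-427175, plus strand: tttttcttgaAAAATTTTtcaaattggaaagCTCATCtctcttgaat
NOP10, chrVIII:241541-241566, plus strand: tcaagttatgCTCATCactcttttat
NOP7, chrVII:695266-695330, plus strand: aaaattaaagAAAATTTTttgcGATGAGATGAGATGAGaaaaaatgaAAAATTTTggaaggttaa
In UTP14, UTP6, UTP7, UTP20, RRP36 and NOP1 an RRPE lies upstream of a PAC. In RRP3 and NOP7 copies of PAC overlap, and NOP10 and NOP16 hold PAC with no RRPE. A match is a description of these letters and says nothing of which factor was bound in these cells.

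**Figure D1:**
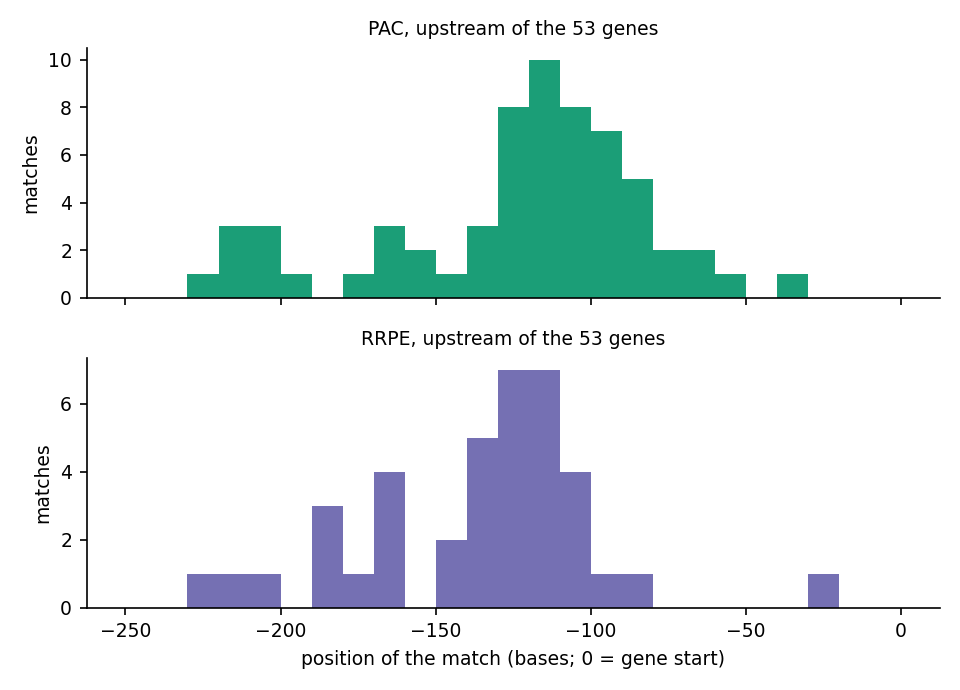
Histograms of PAC matches (top) and RRPE matches (bottom) in the 250 bases before the starts of the 53 genes, in steps of 10 bases; the x axis is the distance of a match's middle from the gene start and the y axis the number of matches. Of 62 PAC matches 54, and of 39 RRPE matches 35, lie between 50 and 200 bases before the start.

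All 53 genes were measured well above the detection limit. The lowest count of any of them in any library was 161, and no gene overlapped another RefSeq gene. Levels are given as CPM, each gene's share of the scaled library size, and between genes as CPM per kilobase of coding sequence. Over the 16 libraries the genes ran from 50.8 CPM per kilobase for NOP19, a small subunit processome component, to 1180 for NOP10. Of the 5 snoRNP proteins, most of which form the particles that modify rRNA, 4 held the top 4 places. The other, RRP9, ranked 28 at 120.9 CPM per kilobase. NOP10 is a core protein of the pseudouridine-making box H/ACA particles. Its coding sequence has only 177 bases, and its mean level was 209 CPM. NOP1 (1135 CPM per kilobase) is the yeast fibrillarin, the methyltransferase of the box C/D particles, and NOP56 (624) and NOP58 (419) are box C/D core proteins. Role by role, median levels per kilobase were 624 CPM for the 5 snoRNP proteins, 220.3 for the 14 large subunit factors, 129.9 for the 15 other processome factors, 104.6 for the 7 exosome subunits, 103.9 for the 4 proteins of the UtpB complex and 101.1 for the 6 of the UtpA complex. The UtpC/Rrp7 pair stood at 148.7 for RRP7 and 77.7 for UTP22. The exosome subunits, which act in one complex with the nuclear exonuclease RRP6, lay within 90.2 to 111.5 CPM per kilobase, while the other processome factors ran from 50.8 to 264.

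Total counts per library ran from 6694390 to 10663540. YFH1 itself lay between 59.9 and 67.9 CPM in H3 WT and between 46.5 and 58.5 CPM in H3 H113N, against 5.86 to 8.93 CPM and 9.03 to 12.7 CPM in the YFH1-off groups. The YFH1 state in the labels thus held for every library. These levels do not check the H3 genotype. One library stood apart. In H3 WT replicate 2, 1045 of 5876 tested genes (17.8%) differed from the other 3 H3 WT libraries by more than 0.5 on the log2 scale, against 58 to 331 genes in the other 15 libraries.

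H3 WT replicate 2 bears directly on these genes. All 53 were lower there than in each of the other 3 H3 WT libraries, which held for 37.4% of all tested genes. Their levels stood at 45.4% to 92.4% of the mean of the other 3, with a median of 61.6%. UTP23, a processome factor, was at 56.4 CPM in replicate 2 and at 124 ± 1.11 CPM in the other 3 libraries (SD, n = 3), and RRP45, an exosome core subunit, was the least displaced, at 76.8 against 83.1 ± 4.67 CPM (SD, n = 3). Summed over the 53 genes, the level was 9580 CPM in replicate 2 and 15150, 14673 and 15889 CPM in replicates 3, 4 and 5. Ribosomal protein transcripts did not show a displacement of that size: the sum over 132 genes was 111572 CPM in replicate 2 and 113839 to 126359 CPM in the others. Each comparison below is therefore given from the fit on all 16 libraries and again with H3 WT replicate 2 left out, an alternative in which the H3 WT mean rests on 3 libraries. As all 53 genes were lowest in that library, its omission raises their H3 WT means. The direction of the shift between the fits, in comparisons that use H3 WT, is thus fixed by that choice.

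The same genes also moved together, by smaller amounts, in other libraries. In H3 H113N replicate 4 only 1 of the 53 genes was above its group's mean, in H3 H113N YFH1-off replicate 4 none was, and in H3 WT YFH1-off replicate 4 there were 4. In H3 H113N replicate 3, 52 of 53 lay above it. The share of all tested genes above their group's mean ran from 45.4% to 53.1% over the 16 libraries, a share that the scaling of library sizes keeps near the middle. Summed levels were 13934 ± 882 CPM in H3 WT YFH1-off, 14809 ± 1107 CPM in H3 H113N and 14191 ± 795 CPM in H3 H113N YFH1-off (SD, n = 4 each), and the ranges of these 3 groups overlapped. CPM are shares of a library's messenger RNA, so less transcript in every cell and fewer cells with the transcript cannot be told apart.

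**Figure D2:**
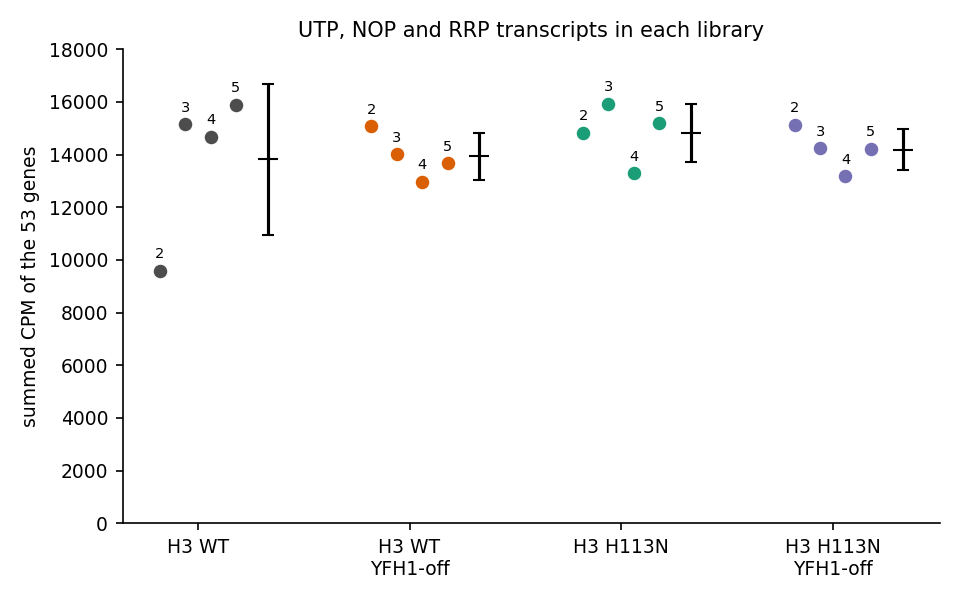
Summed level (y axis, CPM from 0) of the 53 genes in each of the 16 libraries, by group on the x axis; numbers are the replicate numbers and the bars beside the points are mean ± SD over 4 libraries. H3 WT replicate 2 lies at 9580 CPM and the other 15 libraries between 12965 and 15926 CPM.

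The first comparison asked what loss of YFH1 did to these transcripts in H3 WT cells. Changes were small. They were mostly downward once H3 WT replicate 2 was set aside, a shift whose direction that choice fixes. With all 16 libraries, 8 of the 53 genes passed a p of 0.05 adjusted by Benjamini-Hochberg (BH) over all tested genes in edgeR's quasi-likelihood test (15.1%), 3 higher and 5 lower, while 49.5% of the 5876 tested genes passed, 24.5% higher and 25% lower. The median log2 fold change of the 53 genes was -0.03, against 0.01 for all tested genes. Without H3 WT replicate 2, 26 genes passed (49.1%), 2 higher and 24 lower, against 54.7% of all genes, 27.5% higher and 27.2% lower, and the median was -0.18 against 0.00 for all genes. The 7 genes called both ways were NOP16, RRP3, RRP42, UTP6 and UTP14, which fell, and NOP10 and RRP45, which rose. When library size alone set the scale, the split with all 16 libraries was 2 higher and 10 lower, against 15.9% of all genes higher and 35.5% lower, and the median of all genes moved to -0.11. With H3 WT replicate 2 also left out it was none higher and 40 lower, against 18.7% of all genes higher and 38.3% lower.

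RRP3, an RNA helicase of the DEAD-box family needed for making small subunit rRNA, gave the clearest fall. In H3 WT it was at 129, 188, 168 and 181 CPM in replicates 2 to 5, and in H3 WT YFH1-off at 128, 137, 124 and 130.0 CPM. The YFH1-off values lay below replicates 3, 4 and 5 of H3 WT and around replicate 2. Its log2 fold change was -0.36 (edgeR, SE 0.08, adjusted p = 0.0020) with all 16 libraries and -0.46 (edgeR, SE 0.05, adjusted p = 2.6e-07) without that replicate. NOP16, a large subunit assembly factor, went from 143, 193, 207 and 198 CPM to 153, 150.4, 149 and 139.5 CPM. Again only replicate 2 of H3 WT reached down into the YFH1-off range, and the log2 fold change was -0.32 (edgeR, SE 0.09, adjusted p = 0.0076), or -0.43 without it.

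UTP14 activates the helicase that frees U3 from the precursor RNA. It was at 260.0, 455, 399 and 450.5 CPM in H3 WT and at 325, 286, 266 and 290.1 CPM in H3 WT YFH1-off. Its fall of -0.42 (edgeR, SE 0.13, adjusted p = 0.015) was the largest of the 53 genes, and it was -0.58 (SE 0.08) without H3 WT replicate 2. UTP6 belongs to the UtpB complex, an early building block of the processome, and went from 55.0, 80.7, 89.4 and 84.7 CPM to 65.0, 57.2, 61.9 and 64.7 CPM, a log2 fold change of -0.31 (edgeR, SE 0.12, adjusted p = 0.036). In both genes the YFH1-off values lay between replicate 2 and the other 3 H3 WT libraries. UTP14 lost its call without H3 WT replicate 3 (-0.35). UTP6 lost its call without H3 WT replicate 3, 4 or 5 or H3 WT YFH1-off replicate 3 or 4, with log2 fold changes of -0.24 to -0.31. Neither passed when the fit held only the groups compared.

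The 2 rises that held both ways were in genes of other machines. NOP10 was at 144, 190.4, 191 and 186 CPM in H3 WT and at 214, 241, 219 and 211 CPM in H3 WT YFH1-off, so the groups did not overlap. Its log2 fold change was 0.32 (edgeR, SE 0.08, adjusted p = 0.0039), or 0.23 without H3 WT replicate 2. RRP45 rose from 76.8, 83.3, 78.3 and 87.7 CPM to 101, 96.3, 94.7 and 93.4 CPM, also without overlap, by 0.24 (edgeR, SE 0.05, adjusted p = 0.00088), or 0.21 without that replicate. Of the 53 genes these 2 were the ones whose 4 libraries did not overlap between the groups (3.77%), against 42.5% of all tested genes. RRP45 and NOP10 both missed the threshold when library size alone set the scale and H3 WT replicate 2 was left out, with log2 fold changes of 0.10 and 0.12.

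NOP1 lay at the threshold. It was at 775, 1152, 1165 and 1271 CPM in H3 WT and at 1389, 1352, 1253 and 1293 CPM in H3 WT YFH1-off. The log2 fold change of 0.28 had an edgeR adjusted p of 0.0499, and without H3 WT replicate 2 it was 0.14 with an adjusted p of 0.082. The call was lost in 19 of 24 alternatives, among them the omission of any 1 of 14 libraries. UTP8, a UtpA subunit that also takes part in tRNA export, ran the other way. It went from 132, 202, 215 and 193 CPM to 186, 138, 146 and 142 CPM, with a log2 fold change of -0.28 (edgeR adjusted p = 0.076) that became -0.41 (edgeR adjusted p = 5.0e-04) without H3 WT replicate 2. Replicate 2 of the YFH1-off group lay apart from the other 3 in that gene.

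By role, and without H3 WT replicate 2, the 24 falls were spread over the small subunit, large subunit and exosome groups. Of all tested genes 27.2% passed lower and 27.5% higher in that fit, and each role holds few genes. The UtpA complex, which binds the start of the precursor RNA, had 4 of 6 genes lower (UTP8, UTP9, UTP10 and UTP15, -0.22 to -0.41). In the UtpB complex 2 of 4 fell, UTP6 and UTP13 (-0.25), and in the UtpC/Rrp7 complex UTP22 did (-0.27) while RRP7 stood at -0.11. Of the 15 other processome factors 8 fell, among them UTP14, RRP3, UTP7 (-0.45), which belongs to the processome core, and UTP23 (-0.35). Of the 14 large subunit factors 7 fell, led by NOP16 and RRP8 (-0.42), a methyltransferase of large subunit rRNA. Among the exosome subunits RRP42 (-0.29) and the exonuclease RRP6 (-0.22) fell and RRP45 rose. RRP42 and RRP45, both core subunits of 1 ring, were thus called in opposite directions. In either direction 42.9% of the exosome subunits passed, against 54.7% of all tested genes. No snoRNP protein fell in this edgeR fit, NOP10 rose, and NOP56 and NOP58 stood at -0.05 and -0.14. With all 16 libraries the same roles had 1 fall in UtpB, 2 among the other processome factors, 1 among the large subunit factors and 1 in the exosome. Of all tested genes 25% passed lower in that fit.

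**Figure D3:**
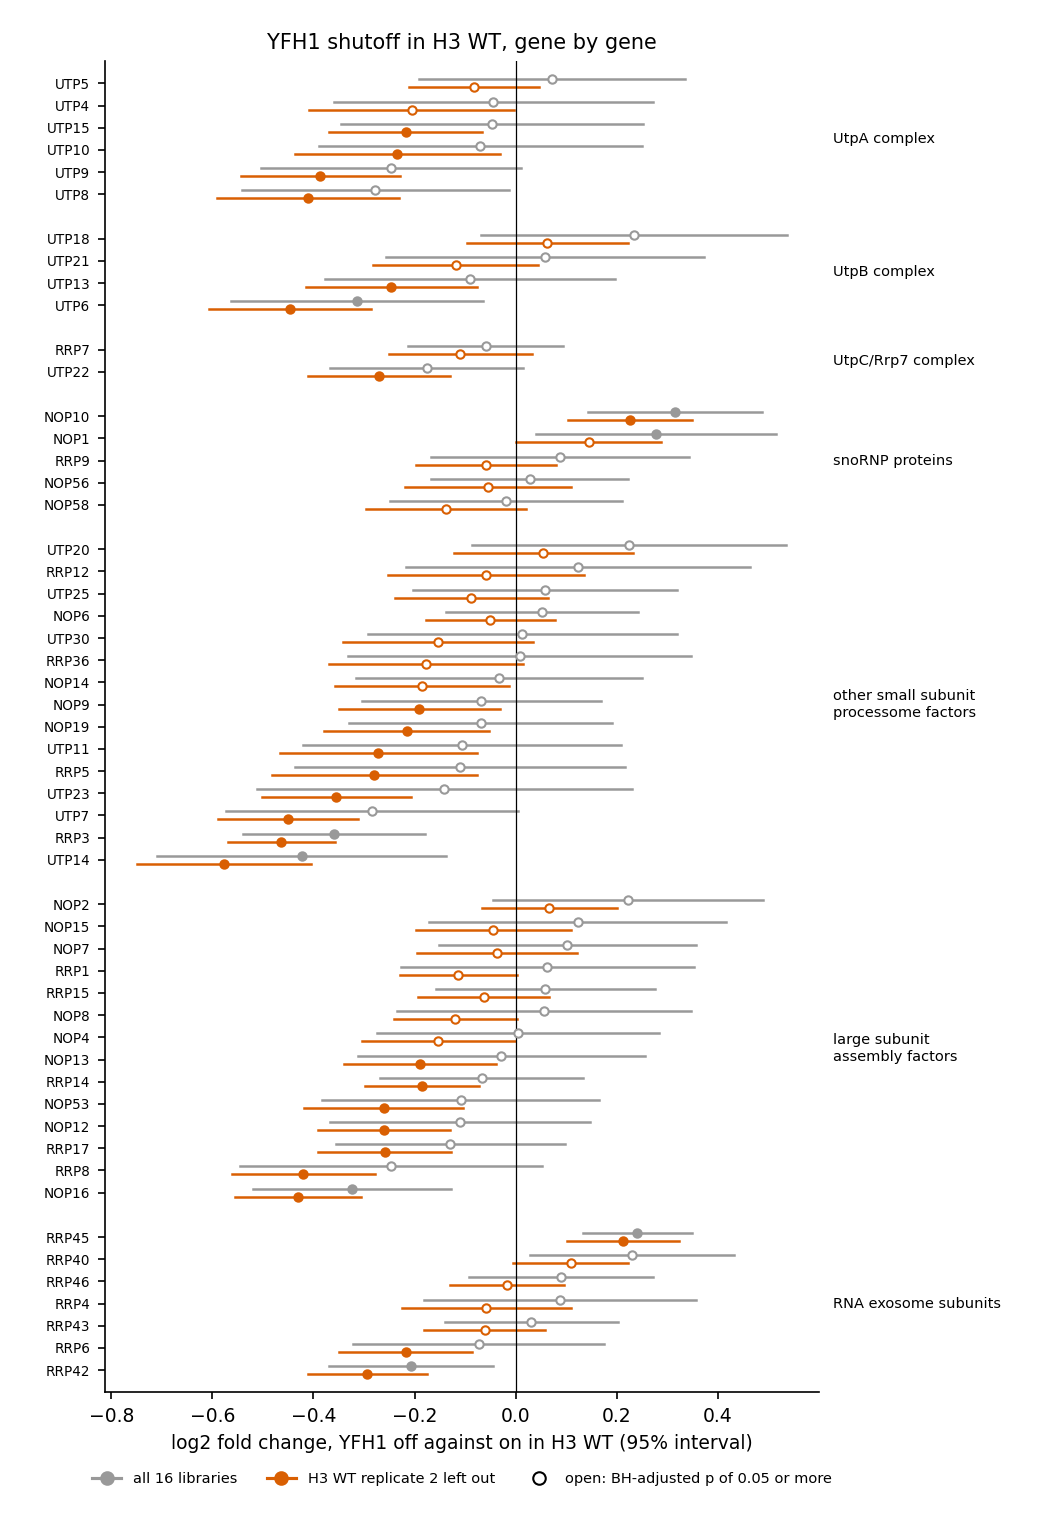
Log2 fold change of each of the 53 genes (rows, grouped by role) for YFH1 off against on in H3 WT, with 95% intervals from edgeR; grey is the fit on all 16 libraries, orange the fit without H3 WT replicate 2, and filled points passed a BH-adjusted p of 0.05. Orange points lie to the left of the grey ones and their intervals are shorter, with 26 filled points against 8.

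The second comparison asked the same of cells with H3 H113N. No gene of the 53 passed with all 16 libraries in edgeR or in DESeq2, and 3 had an unadjusted edgeR p under 0.05, while 20.6% of all tested genes passed, 11.8% higher and 8.73% lower. The point estimates leaned downward: 44 of 53 were negative, with a median of -0.08 against 0.02 for all genes. Leaving out H3 WT replicate 2 leaves these libraries as they are and changes the estimated spread, and then 8 genes passed (15.1%), 1 higher and 7 lower, against 28% of all genes, 16.3% higher and 11.7% lower.

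In that fit NOP1 rose by 0.24 (edgeR, SE 0.06, adjusted p = 0.0076). It was at 864, 982, 874 and 1045 CPM in H3 H113N and at 1119, 1145, 1030.0 and 1154 CPM in H3 H113N YFH1-off. The ranges overlapped in 1 library of each group. RRP3 was at 209, 219, 214 and 208 CPM with YFH1 on and at 194, 178, 176 and 184 CPM with YFH1 off, without overlap, a log2 fold change of -0.22 (edgeR, SE 0.05, adjusted p = 0.0013) whose adjusted p was 0.079 with all 16 libraries. The other genes that fell were UTP20 (-0.30), RRP15 (-0.22), UTP9 (-0.20), UTP23 (-0.20), RRP8 (-0.19) and UTP7 (-0.17). UTP20 lies on chromosome II, where the median of 414 tested genes was itself -0.17 in this comparison with all 16 libraries. Taken from that median, the UTP20 change was -0.13. RRP3, RRP8, UTP7, UTP9 and UTP23 were also among those that fell in H3 WT in the same fit, where their values were -0.46, -0.42, -0.45, -0.39 and -0.35. Of the 53 genes 2 did not overlap between the groups (3.77%), against 27.3% of all tested genes.

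The third comparison set H3 H113N against H3 WT with YFH1 on. With all 16 libraries 10 genes passed (18.9%), 9 higher and 1 lower in H3 H113N, against 46.2% of all tested genes, 23% higher and 23.2% lower. Without H3 WT replicate 2, 12 genes passed (22.6%), 7 higher and 5 lower, against 50.8% of all genes, 25.9% higher and 24.9% lower. The median of the 53 genes changed sign between the fits, from 0.12 to -0.03, and with library size alone as the scale and that replicate left out it was 0.06, below the 0.08 of all genes. With library size alone and all 16 libraries, 16 genes were higher and none lower, against 30.3% of all genes higher and 15.5% lower, and UTP22 stood at -0.17 (edgeR adjusted p = 0.129). Called both ways were 8 genes: NOP10, NOP16, RRP3, RRP14, RRP15, RRP36 and UTP20 were higher and UTP22 was lower.

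The values of these genes differed in how far they rested on replicate 2. RRP3 lay above every H3 WT library in all 4 H3 H113N libraries (208 to 219 CPM against 129 to 188 CPM), with a log2 difference of 0.35 (edgeR, SE 0.08, adjusted p = 0.0025), or 0.25 without it. NOP10 did the same, at 211, 239, 211 and 221 CPM in H3 H113N, with a log2 difference of 0.31, or 0.22 without that replicate. RRP36, which takes part in early cleavages of the precursor, was at 30.2, 57.0, 53.1 and 64.1 CPM in H3 WT and at 70.3, 75.5, 62.6 and 75.8 CPM in H3 H113N. Its log2 difference was 0.48 (edgeR, SE 0.16, adjusted p = 0.020), and 0.29 (edgeR, SE 0.09, adjusted p = 0.011) without replicate 2. The RRP36 call was lost without H3 H113N replicate 5 (0.44), and that of NOP16 without H3 H113N replicate 3 (0.21) or 5 (0.23).

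UTP22, a UtpC protein that carries no PAC or RRPE in its promoter, was the 1 member called lower. It was at 259, 336, 363 and 341 CPM in H3 WT and at 299, 282, 242 and 270.3 CPM in H3 H113N. The ranges overlapped only through H3 WT replicate 2, and the log2 difference was -0.25 (edgeR, SE 0.09, adjusted p = 0.033), or -0.34 without it. The call was lost in 10 of 24 alternatives, among them the omission of H3 WT replicate 3, 4 or 5, of H3 H113N replicate 4 or 5 or of H3 WT YFH1-off replicate 4, with log2 differences of -0.19 to -0.24. NOP1 was lower as well once replicate 2 was left out (-0.35, edgeR adjusted p = 3.4e-04), against -0.21 with it. RRP45, at 89.5, 93.4, 88.6 and 91.9 CPM in H3 H113N, was called with all 16 libraries (0.16) and not without replicate 2 (0.13, edgeR adjusted p = 0.0504), H3 WT replicate 4 (0.14) or H3 H113N replicate 3 (0.14).

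UTP20, a very large scaffold protein of the processome, was at 234, 413, 408 and 439 CPM in H3 WT and at 516, 524, 416 and 547 CPM in H3 H113N. All H3 H113N libraries but replicate 4 lay above all H3 WT libraries. The log2 difference was 0.42 (edgeR, SE 0.15, adjusted p = 0.026), or 0.25 without replicate 2, and it missed the threshold without H3 H113N replicate 2, 3 or 5 (0.38 to 0.41). UTP20 is the only one of the 53 genes on chromosome II, where the median of 414 tested genes was itself 0.21 higher in H3 H113N than in H3 WT with YFH1 on. That chromosome-wide median lay 0.17 to 0.28 above H3 WT in each of the 4 H3 H113N libraries and at most 0.04 above it in the 4 H3 H113N YFH1-off libraries. Taken from the chromosome's median with all 16 libraries, the UTP20 difference was 0.21. NOP16 lies on chromosome V, whose median was 0.11, and its difference of 0.25 was 0.14 above that.

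**Figure D4:**
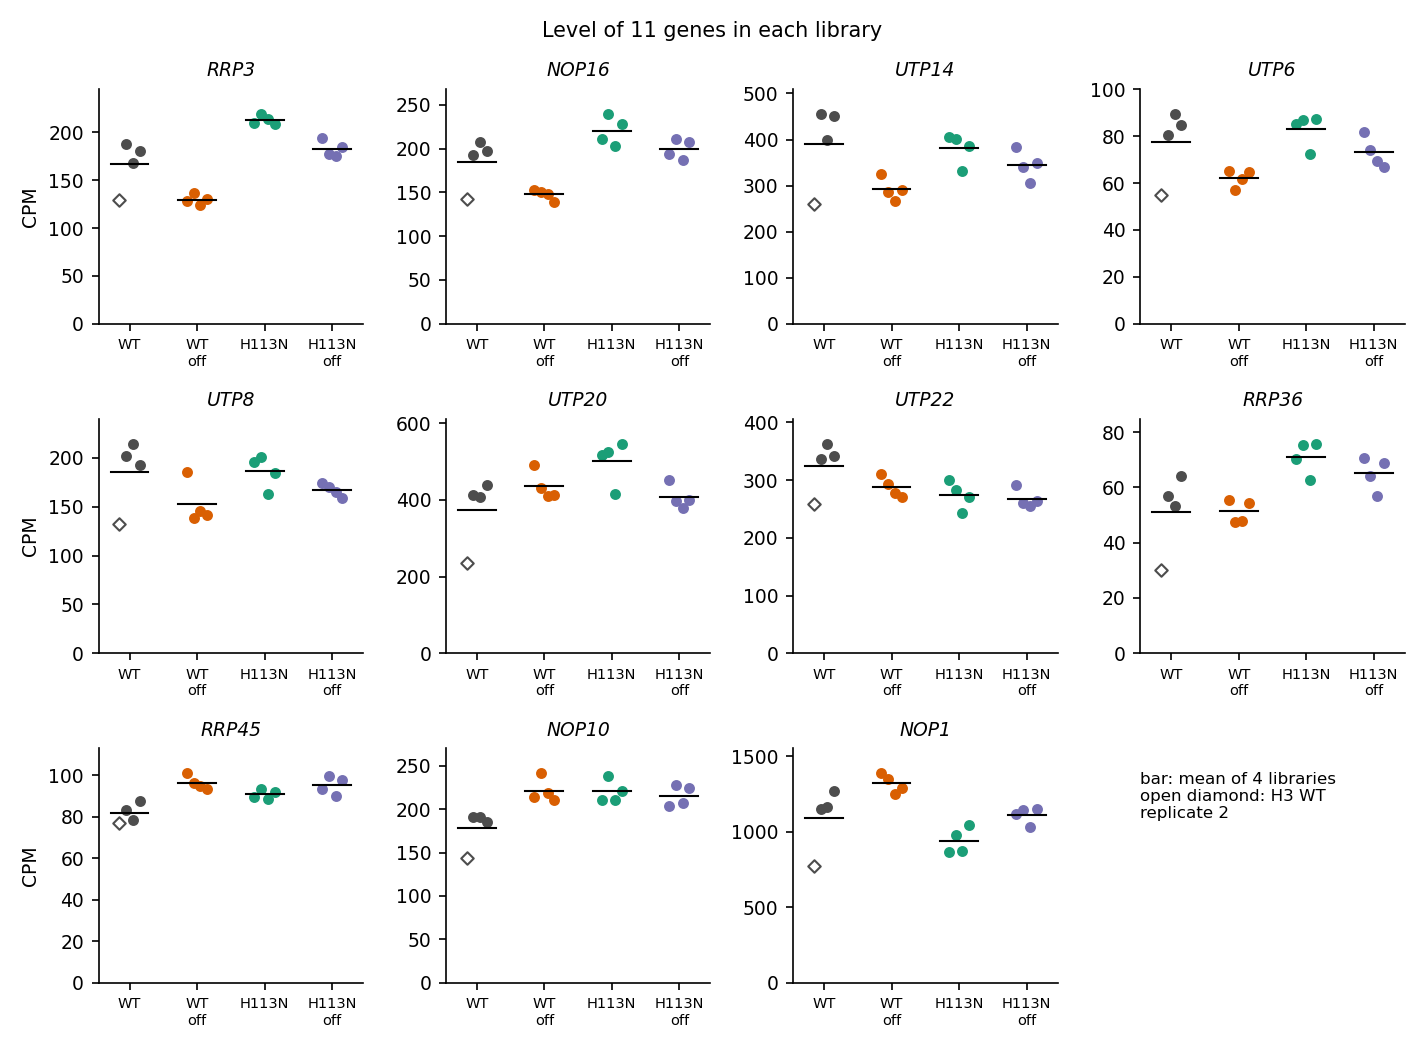
Level (y axes, CPM from 0) of 11 genes in each library of the 4 groups on the x axis, where off means YFH1-off; bars are means of 4 libraries and the open diamond is H3 WT replicate 2. In every panel but that of RRP45 the diamond lies well below the other H3 WT points.

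With YFH1 off, H3 H113N against H3 WT gave mostly higher values. With all 16 libraries 4 genes passed (7.55%), all higher: RRP3, NOP16, RRP14 and RRP42, against 52.4% of all tested genes, 27.2% higher and 25.2% lower. Neither group contains H3 WT replicate 2, and the fold changes hardly moved when it was left out, but the smaller spread brought 17 genes past the threshold (32.1%), 15 higher and 2 lower, against 58.9% of all genes, 30.5% higher and 28.4% lower. The median was 0.07 in both fits, against 0.01 for all genes. With library size alone as the scale and all 16 libraries the call was 13 higher and none lower, against 39.1% of all genes higher and 13.8% lower, the median of the 53 was 0.19 and that of all genes 0.13.

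RRP3 showed the largest difference of the 53 in this comparison, 176 to 194 CPM in H3 H113N YFH1-off against 124 to 137 CPM in H3 WT YFH1-off, a log2 difference of 0.50 (edgeR, SE 0.08, adjusted p = 1.2e-04). NOP16 was at 194, 211, 187 and 207 CPM against 139.5 to 153 CPM, a log2 difference of 0.43 (edgeR, SE 0.09, adjusted p = 8.3e-04). Neither gene overlapped between the groups. RRP14, a factor known from the assembly of both subunits, was higher by 0.27 and RRP42 by 0.24. In the fit without H3 WT replicate 2 the 15 higher genes were 7 of the other processome factors, 4 of the large subunit factors, 2 of the exosome and 1 each of the UtpA and UtpB complexes. The 2 lower genes, NOP1 (-0.25) and RRP9 (-0.18), a protein specific to the U3 particle, are both snoRNP proteins. Of the 53 genes 13 did not overlap between the groups (24.5%), against 53.6% of all tested genes.

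Whether the YFH1 effect depends on H3 is read from the interaction: the log2 fold change of YFH1 off against on in H3 H113N minus that in H3 WT. The shutoff itself was not equally deep. Mean YFH1 went from 63.5 to 7.16 CPM in H3 WT and from 51.8 to 10.6 CPM in H3 H113N. Whether this bears on the interactions was not tested. With all 16 libraries 1 gene of the 53 passed (1.89%), lower, against 30.8% of all tested genes, 17% higher and 13.8% lower. Without H3 WT replicate 2, 8 genes passed (15.1%), 6 higher and 2 lower, against 38.2% of all genes, 20.2% higher and 18% lower. The median was -0.05 with all libraries and 0.11 without that replicate, against 0.01 and 0.02 for all genes.

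NOP10 was the gene called both ways. It rose in H3 WT (0.32) and stood at -0.03 in H3 H113N, where its values were 211 to 239 CPM with YFH1 on and 203 to 228 CPM with YFH1 off. The interaction was -0.35 (edgeR, SE 0.11, adjusted p = 0.030), or -0.26 (edgeR, SE 0.08, adjusted p = 0.015) without H3 WT replicate 2. It missed the threshold without H3 H113N replicate 3 (-0.31) or H3 H113N YFH1-off replicate 2 (-0.32) or 4 (-0.33), and with library size alone as the scale (-0.295, edgeR adjusted p = 0.057). NOP10 in H3 WT with YFH1 on was the low group, and the other 3 group means lay between 216 and 221 CPM. With library size alone as the scale and all 16 libraries no interaction of the 53 passed in edgeR, against 31.1% of all genes, and 14 did with H3 WT replicate 2 left out, against 39%.

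The 6 positive interactions in the fit without H3 WT replicate 2 belong to genes whose fall was deeper in H3 WT. UTP14 was at 405, 400.3, 331 and 386 CPM in H3 H113N and at 383, 341, 305 and 349.5 CPM with YFH1 off there, and its interaction was 0.43 (edgeR, SE 0.11, adjusted p = 0.0049) against 0.28 (edgeR adjusted p = 0.30) with all 16 libraries. NOP16 (0.29), UTP7 (0.28), RRP42 (0.27), RRP3 (0.25) and UTP22 (0.24) were the others. UTP20 had a negative interaction of -0.35 (edgeR, SE 0.11, adjusted p = 0.020) in that fit. It stood at 491, 432, 409.6 and 413 CPM in H3 WT YFH1-off and at 452, 397, 379 and 398 CPM in H3 H113N YFH1-off. With all 16 libraries the UTP20 interaction was -0.52 and missed the threshold in edgeR. The median interaction of the genes on its chromosome was -0.16 in that fit, and taken from this median the UTP20 value was -0.36. The 6 positive calls appeared only in the fits that left out H3 WT replicate 2. UTP20 was also called by DESeq2 on all 16 libraries and by edgeR without H3 WT replicate 5 or without H3 H113N replicate 4.

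No gene of the 53 changed by as much as 1 on the log2 scale in any of the 5 comparisons, and the 95% intervals of all 53 lay inside -1 to 1 in each of them, with and without H3 WT replicate 2. Over all tested genes that held for 81% to 95.1%. In H3 WT with all 16 libraries, 9.55% of all tested genes changed by at least 1 after loss of YFH1. The standard errors of the 53 genes were larger than those of genes at the same level, with a median of 0.124 in that comparison against 0.0709 for 3991 other genes in the same range of CPM. Without H3 WT replicate 2 these medians were 0.0720 and 0.0662. Among those 3991 genes 53.6% passed with all 16 libraries and 60.2% without the replicate, against 15.1% and 49.1% of the 53.

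**Figure D5:**
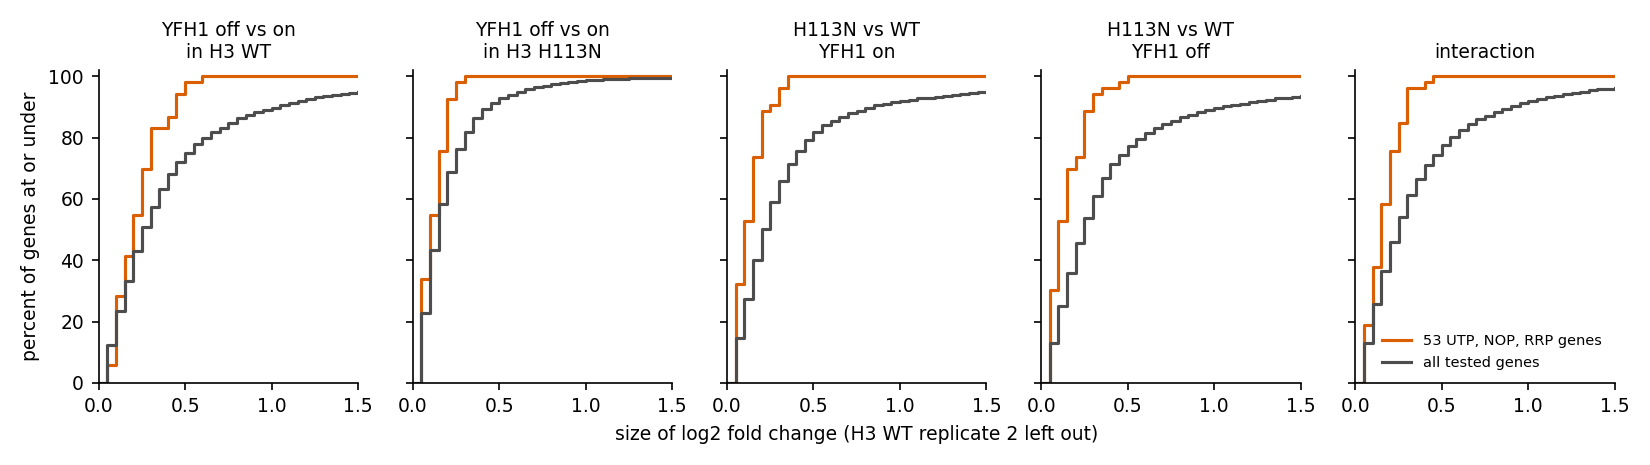
Percent of genes (y axis) whose log2 fold change is at or under a given size (x axis), in each comparison, from the fit without H3 WT replicate 2; orange is the 53 genes and grey all tested genes. In each panel the orange line reaches 100% by 0.60, while the grey line is still below 100% at 1.5.

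The fold changes were also read by promoter class. Without H3 WT replicate 2, loss of YFH1 in H3 WT gave a median log2 fold change of -0.13 for the 26 genes with both PAC and RRPE, -0.19 for those with PAC and no RRPE, -0.22 for those with RRPE and no PAC and -0.15 for the 5 with neither. With all 16 libraries these medians were 0.02, -0.03, -0.06 and 0.01. Both sets describe small classes, and no test was run between them. RRP3 and NOP16, whose promoters hold PAC alone, fell, and so did UTP14 and UTP6, which hold both, and RRP42, which holds neither; NOP10, with PAC alone, rose.

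The rest of the pathway was measured in the same fits. For loss of YFH1 in H3 WT, 24.5% of all tested genes passed higher and 25% lower with all 16 libraries. Without H3 WT replicate 2 these shares were 27.5% and 27.2%. The counts below stand beside those shares. Of 43 other small subunit factors 2 rose and 2 fell with loss of YFH1 in H3 WT when all 16 libraries were used, and 2 rose and 11 fell without H3 WT replicate 2. Of 54 other large subunit factors 1 rose and 1 fell, and then 1 rose and 22 fell, with a median of -0.15. Named from these lists, with values from all 16 libraries, were ESF2 (-0.34), another processome factor, and NOC4 (0.34), a partner of NOP14. MDN1 (0.41), the giant ATPase that strips factors from the large subunit, was named as well. Without H3 WT replicate 2 the small subunit list ran from -0.47 to 0.21 and the large subunit list from -0.48 to 0.28. Of the 16 genes of RNA polymerase I and its factors 2 rose and 1 fell, and then 1 rose and 5 fell. Among 11 other exosome subunits and cofactors 2 rose, one of them PAP2 (0.28), a poly(A) polymerase of the TRAMP complex, and then 1 rose and 4 fell. Of 11 other snoRNP proteins and assembly factors 1 fell, RSA1, an assembly factor of box C/D particles (-0.40), and 3 fell without the replicate.

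Genes of the cytosolic ribosomal proteins form a separate growth-linked regulon. With all 16 libraries 54 of 132 rose and 4 fell with loss of YFH1 in H3 WT, and without H3 WT replicate 2 these were 46 and 6. Of all tested genes 24.5% passed higher and 25% lower with all 16 libraries, and 27.5% and 27.2% without that replicate. In H3 H113N against H3 WT without that replicate 93 of the 132 were lower and 2 higher with YFH1 on. With YFH1 off 96 were lower and none higher by edgeR. The medians were -0.21 and -0.19. Of all tested genes 24.9% passed lower and 25.9% higher with YFH1 on, and 28.4% and 30.5% with YFH1 off. The 53 biogenesis genes had medians of -0.03 and 0.07 in those comparisons. Ribosomal protein genes come in near-identical pairs, so single members of a pair are uncertain here and only counts are given.

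Transcripts of the known regulators were also measured. DOT6, a repressor that binds PAC, was lower in H3 H113N than in H3 WT, by a log2 difference of -0.55 with YFH1 on (edgeR, SE 0.07, adjusted p = 1.7e-05) and -0.60 with YFH1 off. Its partner TOD6 and the RRPE-binding STB3 stood at 0.14 and -0.17 in the first of these, of which STB3 passed (edgeR adjusted p = 0.023). CRF1, a corepressor of ribosomal protein genes, was higher in H3 H113N, by 1.45 before and by 0.92 after loss of YFH1. SFP1, an activator of the regulon, stood at -0.18 and -0.22 and passed both times. With loss of YFH1 in H3 WT, TOR1, the kinase of the nutrient pathway, fell by 0.42 (SE 0.06) and DOT6 rose by 0.25 (SE 0.07), while in H3 H113N TOR1 stood at 0.00; the interaction of TOR1 was 0.42 (edgeR, SE 0.09, adjusted p = 0.0019). Without H3 WT replicate 2 each of these calls held except that of STB3 (edgeR adjusted p = 0.056). TOD6 fell by 0.45 in H3 WT in that fit and stood at -0.19 with all 16 libraries. For loss of YFH1 in H3 WT with all 16 libraries, 5 of the 12 regulators passed higher and 1 lower, against 24.5% and 25% of all tested genes. Without H3 WT replicate 2 there were 4 and 2, against 27.5% and 27.2%.

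In the authors' deposited table of adjusted p-values, 8 of the 53 genes were under 0.05 for loss of YFH1 in H3 WT and none in H3 H113N. Over all genes with such a value the shares were 43.9% and 20%. For H3 H113N against H3 WT there were 11 before loss of YFH1 and 5 after it, against 42.7% and 47.1% of all genes. Of the 8, 11 and 5 genes, 7, 10 and 4 were also called here with all 16 libraries.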

How the data were processed

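Polyadenylated RNA of 16 yeast libraries was analysed from the authors' table of whole-number counts per gene, as deposited. Per the submitters' processing notes, FastQC, cutadapt, HISAT2, featureCounts and DESeq2 were used with the sacCer3 build; versions, gene annotation and strand setting are not given in the sources used here. A second table holds signal values, the deposited counts divided by 1 factor per library (checked for every library), and the authors' adjusted p-values, as deposited; it was used for gene names and for those p-values.

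Samples were grouped by their titles. In R 4.3.3 with edgeR 4.0.16, filterByExpr kept 5876 genes (about 1.17 CPM in at least 4 libraries), TMM scaled the library sizes, and all 16 libraries entered one quasi-likelihood fit with a mean for each group. The 5 comparisons were tested across all kept genes with BH adjustment at 0.05; SE is the log2 fold change over the square root of F. CPM use TMM-scaled library sizes, and deviations of libraries use log2(CPM + 0.5). The fit was tested on simulated data. DESeq2 1.42.0 and the other alternatives are listed in the closing section.

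The members, the role and pathway lists and the tests were chosen with earlier results of these data known. Genes given library by library are, for each comparison, the 2 largest rises and the 2 largest falls among members past the threshold, and, for each role, the member with the smallest adjusted p for loss of YFH1 in H3 WT. From each other pathway list the gene with the smallest adjusted p for that comparison and the one with the smallest interaction p may be named, and any regulator; other members appear with fold changes or counts. Leaving out H3 WT replicate 2 was a listed alternative and is printed throughout because of how that library stands apart. RefSeq R64 matched 6008 of the 6692 gene identifiers and all 53 members. One planned pathway gene name was not matched in the count table and was left out. No replicate pair agreed within sampling noise (chi-square over its degrees of freedom from 2.96 to 76.8). Intervals at 95% cover the spread between libraries.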

Additional observations from a re-analysis of the deposited data

Results flagged for a closer look

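Within-group gaps were checked in the 11 genes given library by library and in the summed level of the 53 genes, 48 groups of 4 libraries in all. A library was listed where its gap to the nearest other library, over the group's whole range, passed Dixon's 95% value for 4 samples, which chance does in about 1 in 20 groups. NOP10 was at 144 CPM in H3 WT replicate 2 against 186 to 191 CPM in the other 3 libraries, and UTP20 at 234 CPM there against 408 to 439 CPM. UTP6 was at 72.6 CPM in H3 H113N replicate 4 against 85.1 to 87.4 CPM, and UTP8 at 186 CPM in H3 WT YFH1-off replicate 2 against 138 to 146 CPM. Over all 53 genes 22 of 212 groups (10.4%) passed. The YFH1 effect on NOP10 differed between H3 genotypes by the interaction test, with a log2 value of -0.347 that missed the threshold without H3 H113N replicate 3 or H3 H113N YFH1-off replicate 2 or 4 and with library size alone as the scale (-0.307, -0.32, -0.327 and -0.295).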

How the results depend on the processing

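Alternatives were other scalings, filters, DESeq2, only the groups compared, a replicate block and each library left out; library size with H3 WT replicate 2 left out was added after seeing the data. With only the groups compared, counts of members called were 4 and 9 for loss of YFH1 in H3 WT and H3 H113N, and 2 and 18 for H3 H113N against H3 WT with YFH1 on and off. The shares of all tested genes were not taken in those fits, so these counts cannot be read as a result about the members. With library size alone they were 2 for loss of YFH1 in H3 H113N, 16 and 13 for H3 H113N against H3 WT (YFH1 on, off; median 0.194 for the latter) and 0 for the interaction, for which DESeq2 gave 2. The added setting gave 40, 19, 17, 30 (median 0.195) and 14. No share of all tested genes was taken for the 19, 17 and 30, for the 2 in H3 H113N or for the 2 of DESeq2. Those counts cannot be read as a result about the members either. Leaving out 1 library at a time, counts ran from 4 to 26, 0 to 8, 4 to 16, 3 to 17 and 0 to 8 in the order of the report. Apart from the 16, the highest counts came without H3 WT replicate 2, where 54.7%, 28%, 58.9% and 38.2% of all tested genes passed. For the other omissions and for the replicate block that share was not taken. The cause of these differences was not tested. The other filters and scalings and the replicate block kept each count within 1.5 times; the block gave 8, 0, 9, 4 and 1, with RRP40 in place of UTP6 (-0.311) in the first and without UTP22 (-0.252) in the third. The replicate numbers were not taken as pairs, since the correlations of same-numbered libraries ran from -0.172 to 0.228. NOP16 and RRP3 kept their calls for loss of YFH1 in H3 WT and for H3 H113N against H3 WT with YFH1 off, and RRP3 and NOP10 theirs with YFH1 on, under all 24 alternatives. NOP1 lost its call in H3 WT in 19 of 24. No named call reversed. Each gene had at least 161 counts in every library, and the spread between libraries gave a median SE of 0.124 for loss of YFH1 in H3 WT.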
